A study of Mus musculus with 15 samples.

Results

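Knockout podocytes given apolipoprotein M (ApoM) were compared with knockout podocytes given CYM50358, 3 libraries against 3, which are 6 of the 15 libraries of the series. The 6 libraries were chosen by their labels alone, and no measured value entered the choice. All 6 were made from total RNA of mouse Col4a3-/- podocytes after 24 h of treatment. Podocytes wrap the glomerular capillaries and form the outer layer of the kidney filter, and loss of Col4a3, which encodes a chain of collagen IV, is a model of Alport syndrome. Another 3 libraries of Col4a3-/- podocytes given vehicle lie on the same scale and are shown for orientation; they did not enter the main test. The labels give no dose, no vehicle compound and no clone, nor do they state if replicates were separate cultures. The p-values therefore reflect the spread among the libraries as sequenced, which may be technical.

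ApoM is the plasma protein, mostly bound to high-density lipoprotein, that carries the lipid mediator sphingosine-1-phosphate (S1P) to its G-protein-coupled receptors. CYM50358 is an antagonist of one of those receptors, S1PR4. Cells sense their lipid supply through a few transcription factors: SREBP proteins switch on cholesterol and fatty acid synthesis when membrane sterol is low, PPAR proteins switch on fatty acid oxidation when fatty acids are plentiful, and LXR proteins answer to oxysterols. Lysosomal genes share the regulators TFEB and TFE3, and genes of serine and amino acid supply are driven by ATF4 in the integrated stress response. Comparing the treatments directly asks in which of these programmes the cells differed, without the vehicle libraries that each treatment was first compared with.

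Expression is given as signal, the deposited value per gene, whose unit is not stated. The values behave as a depth-scaled count (CPM with a further factor) that is not divided by gene length. Libraries held 60919831 to 77779920 reads in ApoM cells and 60455130 to 83166742 in CYM50358 cells, and mitochondrial genes took 3.17 to 3.20% and 3.30 to 3.46% of the signal. CYM50358 replicate 3 stood farthest from the rest on the first principal component, which held 31.7% of the variance. Of the defining podocyte markers, Tcf21 had 0 reads in every library and Nphs1, which encodes nephrin, averaged 0.204 in ApoM cells and 0.221 in CYM50358 cells. Wt1 (4.66 and 4.39) and Synpo (319 and 335) were detected, as were the contractile genes Acta2 and Tagln at high levels, so the cells carried only part of the podocyte profile. The summed signal of 20 podocyte markers was 2607 to 2760 in ApoM cells and 2435 to 2501 in CYM50358 cells, that of 11 mesangial and fibroblast markers 8301 to 9786 and 8433 to 9093, and that of 11 parietal and tubular markers 706.1 to 745.6 and 705.7 to 741.2. Actn4 (817 and 764, not called), Nes (555 and 431) and Thsd7a (315 and 265) weighed most in the gap between the podocyte sums. Of the 15 podocyte markers tested, 8 had a positive and 7 a negative log2 fold change, with a median of 0.03. The mesangial sum was mostly Acta2 (6504 and 6269) and Tagln (2152 and 2122), while Pdgfra, Itga8, Ren1 and Cspg4 were near 0. Leukocyte markers summed to at most 4.62, with Adgre1 and Cd3e at 0 reads, and 8 endothelial markers to 28.4 to 31.9 in ApoM cells and 28.97 to 30.9 in CYM50358 cells, of which Ehd3 made up 28.2 and 28.98 on average while the defining genes Pecam1, Cdh5, Kdr and Tie1 were at or near 0. In bulk RNA, fewer cells of a type and less RNA per cell cannot be told apart, and the part of marker levels in the results was not tested.

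Of 26 cholesterol genes tested 22 were lower in ApoM cells, against 2.59% of all genes tested that were called in either direction. The lists were chosen with earlier results of these data known, so their shares describe the lists and are no independent test. Here and below, a rise or fall is a higher or lower level in ApoM than in CYM50358 cells, not a change from vehicle. Of 29 genes of fatty acid oxidation 10 rose, and of 31 genes of the integrated stress response and amino acid supply 11 rose and 1 fell. Of 33 lysosomal hydrolases and activators 12 fell by small amounts, and the desaturase genes Scd1 and Scd2 and the metallothionein genes Mt1 and Mt2 fell as well. Of 13878 genes tested with limma on log2(signal + 1), 360 passed an adjusted p of 0.05, which is 2.59% of those tested. In ApoM cells 170 were higher (1.22%) and 190 lower (1.37%). The vehicle mean was closer to the ApoM mean for 327 of the 360 (90.8%), against 65.0% of all genes tested. Most differences were small, with a median size of 0.33 on the log2 scale; 34 rose and 62 fell by at least 0.5, and 6 rose and 7 fell by at least 1. The 3 values of each group did not overlap for 350 of the 360, against 19.5% of all genes tested. Lack of overlap in a called gene therefore adds little to its call, and the rule that named the largest changes required it. With replicate number as a block 1174 genes passed (8.46%), 671 higher (4.83%) and 503 lower (3.62%), and all 360 were among them. The number called also rested on single libraries: it was 126 without ApoM replicate 1, 143 without ApoM replicate 2 and 147 without CYM50358 replicate 2, against 536 without CYM50358 replicate 1. Of the 360, 102 passed whichever library was left out.

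**Figure D1:**
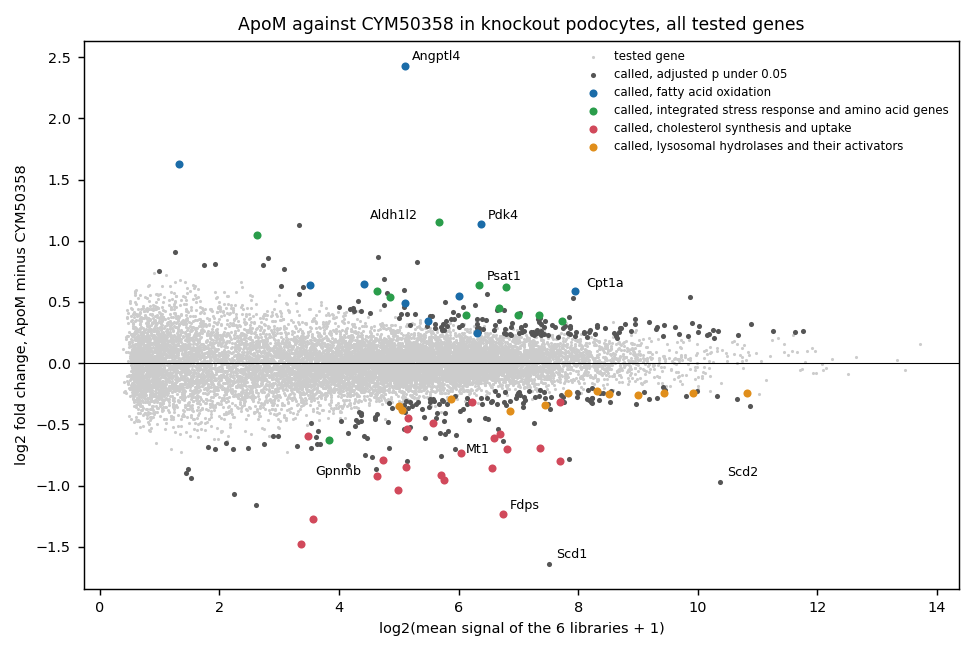
Each point is 1 of the 13878 tested genes, with its mean signal over the 6 libraries as log2(mean + 1) on the x axis and its log2 fold change, ApoM minus CYM50358, on the y axis; called genes are dark and 4 gene lists are coloured. Angptl4 lies highest at 2.43 and Scd1 lowest at -1.64, and the called genes of the cholesterol list lie below 0 and those of the fatty acid oxidation list above it.

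Angptl4 had the largest rise. It encodes a secreted inhibitor of lipoprotein lipase and is a well known PPAR target, at chr17:33992724-34000804 in mm39, the build of the deposited coordinates. Its signal was 58.3, 52.4 and 60.7 in ApoM cells, against 10.1, 8.97 and 10.2 in CYM50358 cells, so the groups were far apart, and ApoM cells stood 5.84-fold higher (log2 fold change 2.43, SE 0.10, adjusted p = 5.0e-13). In vehicle cells it was 55.2, 48.6 and 56.4, within the range of ApoM cells or just below it. Pdk4, the kinase that keeps pyruvate out of the citrate cycle when fat is burned, measured 105, 119 and 113 in ApoM cells, against 50.1, 59.7 and 43.1 in CYM50358 cells (log2 fold change 1.13, SE 0.09, adjusted p = 4.6e-08). Every ApoM library was above every CYM50358 library (350 of the 360 called genes had no overlap). The vehicle values of 92.4, 90.8 and 130.4 were on the ApoM side.

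The gatekeeper of fatty acid entry into mitochondria moved the same way. Cpt1a, the carnitine palmitoyltransferase of the outer membrane, was 297, 305 and 288 in ApoM cells, against 195, 193 and 201 in CYM50358 cells (log2 fold change 0.59, SE 0.05, adjusted p = 6.2e-07), with little spread in either group. Its partner carrier Slc25a20, which passes acylcarnitines across the inner membrane, averaged 39.1 ± 1.98 in ApoM cells and 27.5 ± 2.77 in CYM50358 cells (SD, n = 3 each), with a log2 fold change 0.49, SE 0.09, adjusted p = 0.0030, whereas Cpt2, the enzyme on the inner side, had a log2 fold change of -0.04 and was not called. The acyl-CoA thioesterase genes Acot1 (0.64) and Acot2 (0.64), which are close copies whose reads may be divided uncertainly, and the mitochondrial carrier gene Ucp2 (76.4, 75.9 and 74.2 in ApoM cells, against 48.5, 50.2 and 55.6 in CYM50358 cells; log2 fold change 0.55, SE 0.07, adjusted p = 6.2e-05) were also higher. In all, 10 of the 29 tested genes of fatty acid oxidation rose and 0 fell, against 1.22% of all genes tested that rose. The median log2 fold change of the 29 was 0.14, against 0.0006 over all genes tested. The rises did not extend to the whole spiral: Acaa2 (0.35) and Etfdh (0.25) were called, but Acadm (-0.18), Hadha (0.12) and Hadhb (0.02) were not. Ppargc1a, a coactivator of this programme, had a log2 fold change of -0.08 at a signal near 1 and Ppara was too low to be tested. A perfect direct repeat of the PPAR core site spaced by 1 base (DR1), searched on both strands, occurred in 0 of 25 RefSeq promoter windows of the list and in 0.0481% of 27025 genes. With only 13 genes holding these exact letters, a count of 0 in the list carries no information on PPAR sites. Other forms were not searched.

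**Figure D2:**
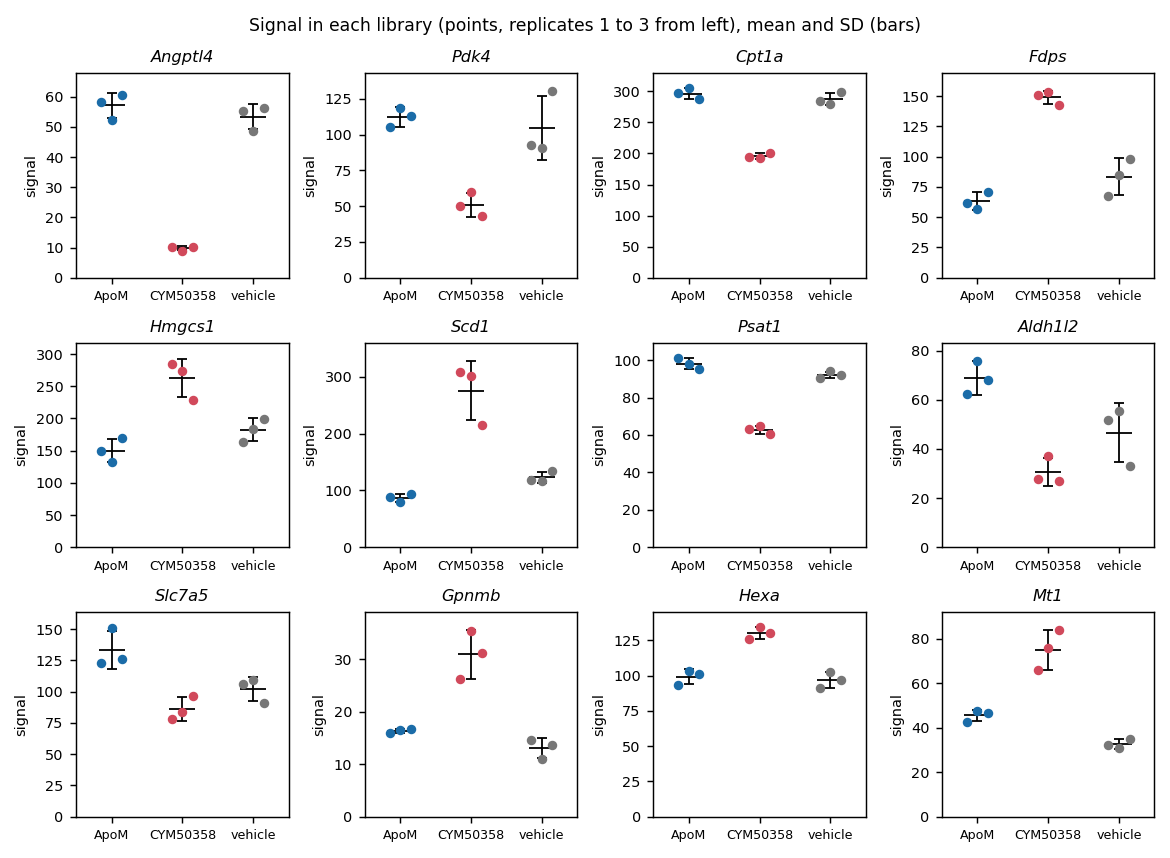
Signal of 12 genes in each library, with replicates 1 to 3 as points from left to right and the mean and SD as black bars, for ApoM, CYM50358 and vehicle cells; each y axis starts at 0. Angptl4, Pdk4, Cpt1a, Psat1, Aldh1l2 and Slc7a5 are higher in ApoM than in CYM50358 cells, the other 6 genes are lower, and vehicle values mostly lie near those of ApoM.

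Cholesterol synthesis was the list with the highest share of calls. Of 26 tested genes 22 fell in ApoM cells and 0 rose, against 1.37% of all genes tested that fell. The median log2 fold change of the 26 was -0.70, and leaving out 1 library at a time 18 to 24 fell, with 24 without CYM50358 replicate 3, the library that stood apart. The falls ran from the first steps to the last. Acat2, which joins acetyl groups, and Hmgcs1, which makes the precursor of mevalonate, had log2 fold changes of -0.85 and -0.80. Hmgcs1 measured 149, 132 and 169 in ApoM cells, against 284, 274 and 229 in CYM50358 cells (log2 fold change -0.80, SE 0.08, adjusted p = 2.5e-06), and the groups did not overlap, as for 350 of the 360 called genes. Fdps, the farnesyl diphosphate synthase at chr3:89000895-89009266, changed most among the abundant enzymes, with 61.7, 56.3 and 71.01 in ApoM cells, against 151, 153 and 143 in CYM50358 cells (log2 fold change -1.23, SE 0.07, adjusted p = 4.5e-10). ApoM libraries were thus 2.36-fold lower, and vehicle libraries, at 67.6, 84.9 and 98.2, lay between the treatments or within the ApoM range.

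After squalene, the ring-forming enzyme Lss (-0.91), the demethylases Cyp51 (-0.85) and Msmo1 (-0.69), the sterol reductase Tm7sf2 (-1.27) and the dehydrogenase Nsdhl (-1.04) fell. Cyp51 measured 62.5, 60.8 and 74.2 in ApoM cells, against 128, 126 and 106 in CYM50358 cells (log2 fold change -0.85, SE 0.08, adjusted p = 1.1e-06). The late reductase Dhcr7 (-0.45) fell less. Outside the enzymes, Insig1, which holds SREBP in the endoplasmic reticulum and is itself an SREBP target, measured 32.1, 36.1 and 39.2 in ApoM cells, against 74.6, 80.7 and 57.1 in CYM50358 cells (log2 fold change -0.95, SE 0.10, adjusted p = 4.8e-06). Among the genes of the list that were not called were Stard4 (-0.32), Ebp (-0.27) and Ggps1 (0.07), whose product leads away from sterols.

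**Figure D3:**
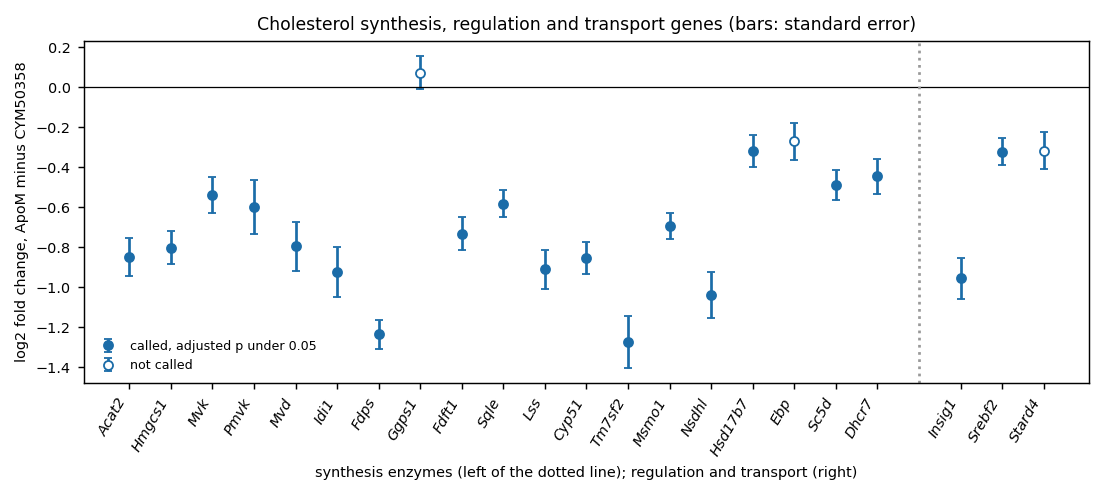
Log2 fold change, ApoM minus CYM50358, of 22 of the 26 tested genes of cholesterol synthesis and uptake, with synthesis enzymes in pathway order from the left and genes of regulation and transport to the right of the dotted line; bars are standard errors and open circles were not called. Tm7sf2, Fdps and Nsdhl lie below -1, and Ggps1 is the only gene shown above 0.

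The promoter of Hmgcs1 is shown because it was the only one of 18 list members with a RefSeq window (250 bases before to 50 after the start, build GRCm38.p6) that held the sterol regulatory element TCACNCCAC on either strand, a match found in 1.44% of 27025 genes. It lies on the plus strand at chr13:119690184-119690252, is written in the direction of transcription, and carries the match in capitals.
Hmgcs1: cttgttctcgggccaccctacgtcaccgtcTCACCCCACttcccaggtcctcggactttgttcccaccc
A match is a description of letters, and other forms of the element were not searched.

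Fatty acid desaturation showed the largest fall of any called gene. Scd1, the stearoyl-CoA desaturase that makes monounsaturated fatty acids, lies at chr19:44382894-44396318 and measured 87.9, 79.4 and 93.1 in ApoM cells, against 308, 302 and 215 in CYM50358 cells (log2 fold change -1.64, SE 0.10, adjusted p = 4.3e-10). It was 3.17-fold lower in ApoM cells, and CYM50358 replicate 3 was the lowest of its group but still above all 3 vehicle values of 118, 117 and 133. Its relative Scd2 measured 959.99, 852 and 864 in ApoM cells, against 1899.6, 1839.5 and 1518 in CYM50358 cells (log2 fold change -0.97, SE 0.07, adjusted p = 3.1e-08). Reads of these similar genes may be divided uncertainly. Of 18 tested genes of fatty acid synthesis and desaturation 8 fell and 1 rose (median -0.18), against 1.37% and 1.22% of all genes tested. The acyl-CoA synthetase gene Acsl3 (-0.77), the elongase gene Elovl6 (-0.52), the acetyl-CoA genes Acss2 (-0.40) and Acly (-0.28) and the desaturase genes Fads1 (-0.30) and Fads2 (-0.27) fell. Fads3 rose by 0.22, but no gene of the list rose when a library other than CYM50358 replicate 3 was left out. The central synthase Fasn (-0.13) and the carboxylase Acaca (-0.15) were not called. The falls were fewer when a library was left out, 4 without ApoM replicate 1, 5 without ApoM replicate 2 and 3 without CYM50358 replicate 2.

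Genes of cholesterol efflux and LXR targets fell in 5 cases of 12 and rose in 0 (median -0.27), against 1.37% of all genes tested that fell. Mylip, an LXR-driven ubiquitin ligase, measured 32.8, 31.8 and 34.7 in ApoM cells, against 54.3, 52.2 and 47.00 in CYM50358 cells (log2 fold change -0.61, SE 0.08, adjusted p = 8.5e-05). Srebf1, which encodes the SREBP of fatty acid synthesis, measured 75.1, 83.7 and 85.7 in ApoM cells, against 116, 124 and 115 in CYM50358 cells (log2 fold change -0.54, SE 0.07, adjusted p = 3.4e-05). For both genes every ApoM value was below every CYM50358 value, and 350 of the 360 called genes had no overlap. The phospholipid enzyme gene Lpcat3 (-0.31), the lysosomal sterol carrier gene Npc2 (-0.28) and the efflux pump gene Abca1 (-0.26) fell as well, while Abcg1 (-0.37) and Apoe (-0.16) were not called. Without ApoM replicate 1 or without CYM50358 replicate 2, 3 of the 5 passed. Among lipid droplet genes, Plin2, which coats droplets and is a PPAR target, rose (360.3, 381 and 403 in ApoM cells, against 296, 311 and 330.1 in CYM50358 cells; log2 fold change 0.29, SE 0.06, adjusted p = 0.0085) and Dgat2, which makes triglyceride, fell (-0.68, adjusted p = 0.041), as the only calls among 17. The calls of Plin2 and Dgat2 were 11.8% of the 17, against 2.59% of all genes tested. The fall of Dgat2 was not called with a pseudocount of 0.1, by edgeR, with 9 libraries in 1 fit or with any library left out other than CYM50358 replicate 1, and the rise of Plin2 was lost without CYM50358 replicate 2.

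Some of the lysosomal genes were lower in ApoM cells by small amounts. Of 33 tested hydrolases and activators 12 fell and 0 rose (median -0.18), and of 29 genes of the proton pump, the lysosomal membrane and autophagy 11 fell and 0 rose (median -0.22). Over all genes tested 1.37% fell. Hexa, a subunit of the hexosaminidase that is deficient in Tay-Sachs disease, measured 93.6, 103 and 101 in ApoM cells, against 126, 134 and 130.5 in CYM50358 cells (log2 fold change -0.39, SE 0.06, adjusted p = 6.5e-04). The protease genes Ctsa (-0.34), Ctsb (-0.26) and Tpp1 (-0.25), the sialidase gene Neu1 (-0.39) and the saposin precursor gene Psap (-0.24) fell alongside it. Gpnmb, a lysosomal membrane glycoprotein that is induced when lysosomes are loaded with lipid, had the largest change of these lists, with 15.9, 16.5 and 16.6 in ApoM cells, against 26.1, 35.3 and 31.2 in CYM50358 cells (log2 fold change -0.87, SE 0.11, adjusted p = 3.8e-05). Vehicle values for Gpnmb were 14.6, 11.01 and 13.7, below those of both treatments. The pump subunit genes Atp6v0d1 (-0.28) and Atp6v0b (-0.31), the tetraspanin gene Cd63 (-0.25), the calcium channel gene Mcoln1 (-0.33) and Rragd (-0.60), whose GTPase couples lysosomes to mTORC1, were among the falls. The regulators themselves, Tfeb (-0.24), Tfe3 (0.06) and Mitf (0.32), were not called. These counts depended on single libraries: for the hydrolases 2 fell without ApoM replicate 1, 5 without ApoM replicate 2 and 2 without CYM50358 replicate 2, and for the membrane and pump genes 1, 2 and 1. With the replicate block they were 16 and 18, against 3.62% of all genes tested that fell.

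The promoters of Ctsa, the lysosomal protective protein, and Mcoln1 are shown because they held the CLEAR element TCACGTGA, which reads the same on both strands and binds TFEB-family factors. It occurred in 3 of 28 hydrolase genes with a window, in 4 of 25 genes of the pump and membrane list and in 1.12% of all 27025 genes. Ctsa, with 2 copies, lies at chr2:164833730-164833814 and Mcoln1 at chr8:3500443-3500510, both on the plus strand of GRCm38.p6 and in RefSeq windows, with the element in capitals.
Ctsa: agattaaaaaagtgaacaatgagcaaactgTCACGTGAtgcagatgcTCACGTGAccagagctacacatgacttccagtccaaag
Mcoln1: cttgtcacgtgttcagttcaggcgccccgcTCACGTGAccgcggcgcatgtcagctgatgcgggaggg

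Several genes of serine, one-carbon and amino acid supply were higher in ApoM cells. Of 31 tested genes of the integrated stress response and amino acid list 11 rose and 1 fell (median 0.23), against 1.22% and 1.37% of all genes tested. Psat1 and Psph, the aminotransferase and phosphatase of serine synthesis, measured 101, 98.1 and 95.2 in ApoM cells, against 63.1, 64.7 and 60.5 in CYM50358 cells (log2 fold change 0.64, SE 0.06, adjusted p = 2.5e-06) and had a log2 fold change of 0.59. Replicates of Psat1 were close, and its vehicle values of 90.7, 94.05 and 91.8 lay just below those of ApoM cells. The mitochondrial folate enzyme gene Aldh1l2 measured 62.3, 76.00 and 68.2 in ApoM cells, against 27.95, 37.1 and 26.97 in CYM50358 cells (log2 fold change 1.15, SE 0.10, adjusted p = 3.9e-07), with vehicle values spread from below the CYM50358 maximum to below the ApoM minimum (51.7, 55.4 and 32.9). The folate enzymes Mthfd2 (0.54), Mthfd1l (0.58, named by its size of change and no member of the list) and Shmt2 (0.39) also rose. The amino acid transporter gene Slc7a5 measured 123, 151 and 126 in ApoM cells, against 78.00, 84.01 and 96.2 in CYM50358 cells (log2 fold change 0.62, SE 0.08, adjusted p = 6.0e-05) and the asparagine synthetase gene Asns 109, 126 and 114 in ApoM cells, against 79.9, 91.7 and 83.7 in CYM50358 cells (log2 fold change 0.45, SE 0.07, adjusted p = 5.2e-04). Slc7a11, the cystine importer, was low and variable, with 8.34, 8.28 and 4.96 in ApoM cells, against 2.04, 5.63 and 1.88 in CYM50358 cells (log2 fold change 1.05, SE 0.25, adjusted p = 0.023): CYM50358 replicate 2 lay above ApoM replicate 3, and neither edgeR nor DESeq2 called the gene. The rise did not take in the whole response. Atf4 itself (0.09), Ddit3 (-0.22), Trib3 (0.32) and Chac1 (0.38) were not called, and Cebpb, another factor of the response, fell: it averaged 10.2 ± 1.54 in ApoM cells and 16.2 ± 1.71 in CYM50358 cells (SD, n = 3 each), a log2 fold change -0.63, SE 0.13, adjusted p = 0.0098, a call that was lost without ApoM replicate 1 and without ApoM replicate 2. Over all genes tested, 15.2% had an unadjusted p under 0.05 and 4.83% rose with the block. Of 23 endoplasmic reticulum chaperone genes limma called 0 without the block, 6 had an unadjusted p under 0.05, edgeR called 0, DESeq2 called 3, and 5 rose with the block. The smallest p-values were those of Hsp90b1 (0.19, adjusted p = 0.067) and Hyou1 (0.18, adjusted p = 0.099).

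The C/EBP-ATF response element TGATGNAA was present in 8 of 28 genes of this list with a window, against 4.51% of all 27025 genes, and in 2 of the 10 called ones with a window. These 2, Asns at chr6:7693195-7693262 and Slc7a11 at chr3:50443623-50443709, both on the minus strand of GRCm38.p6, are shown from RefSeq in the direction of transcription, with each match in capitals; the last match of Slc7a11 is on the opposite strand.
Asns: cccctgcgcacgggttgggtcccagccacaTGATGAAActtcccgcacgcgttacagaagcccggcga
Slc7a11: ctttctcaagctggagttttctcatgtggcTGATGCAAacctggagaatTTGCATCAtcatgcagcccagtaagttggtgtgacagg

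Metallothionein genes were lower in ApoM cells. The metallothionein genes Mt1, at chr8:94905710-94906955 in mm39, and Mt2 encode small proteins that buffer zinc and copper. Mt1 measured 42.6, 47.4 and 46.7 in ApoM cells, against 65.8, 75.5 and 83.6 in CYM50358 cells (log2 fold change -0.70, SE 0.08, adjusted p = 1.8e-05). Mt2 measured 11.9, 15.7 and 18.2 in ApoM cells, against 26.1, 28.1 and 23.9 in CYM50358 cells (log2 fold change -0.75, SE 0.12, adjusted p = 0.0011). The groups did not overlap for either, as for 350 of the 360 called genes and 19.5% of all genes tested. Reads of these 2 similar genes may be divided uncertainly. Vehicle values of Mt1, 32.1, 30.9 and 35.1, were below both treatments. Steap3, the endosomal iron reductase, fell by 0.60 on the log2 scale, and these were the 3 calls among 14 metal genes, whose median log2 fold change was -0.02. That is 21.4%, against 2.59% of all genes tested. The ferritin chains Fth1 (1534, 1694 and 1721 in ApoM cells, against 1999.6, 2121 and 2188 in CYM50358 cells; log2 fold change -0.35, SE 0.06, adjusted p = 0.0022) and Ftl1 (-0.29), which have many pseudogene copies, the peroxidase gene Gpx4 (-0.29) and Hmox1 (-0.26) also fell. In the list of NRF2 targets that holds them, 5 of 26 fell and 2 rose, Txnrd1 (0.26) and Slc7a11, against 1.37% and 1.22% of all genes tested. Nqo1 (-0.30) and Gclm (-0.13) were not called. Without ApoM replicate 1 or 2 or CYM50358 replicate 2, 1 of these 26 fell, and without CYM50358 replicate 3, 2 fell.

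Of 23 basement membrane genes 5 were higher in ApoM than in CYM50358 cells and 0 were lower (median 0.15), against 1.22% of all genes tested that were higher. The vehicle mean was closer to the ApoM mean for all 5. Among them were the 3 collagen chains that form the mature glomerular network. Col4a3 transcripts, still present in these knockout cells, measured 22.1, 23.4 and 21.95 in ApoM cells, against 13.5, 17.4 and 15.8 in CYM50358 cells (log2 fold change 0.51, SE 0.11, adjusted p = 0.012), and the deposited gene totals do not show which exons the reads cover. Col4a4, its neighbour at chr1:82426144-82564570, measured 327, 284 and 239.8 in ApoM cells, against 193, 189.5 and 199.98 in CYM50358 cells (log2 fold change 0.53, SE 0.08, adjusted p = 2.4e-04), and Col4a5, on the X chromosome, measured 1193, 1022 and 990.05 in ApoM cells, against 926, 824 and 797 in CYM50358 cells (log2 fold change 0.33, SE 0.07, adjusted p = 0.011). The groups did not overlap for any of these 3 genes, as for 350 of the 360 called genes and 19.5% of all genes tested. Vehicle libraries of Col4a4, at 276, 273 and 177, lay within the ApoM range in 2 cases and below the CYM50358 range in 1. In the authors' deposited comparisons with vehicle, ApoM gave 0.18 for Col4a3, 0.23 for Col4a4, -0.05 for Col4a5 and 0.05 for Hspg2 (adjusted p = 0.999 each). For CYM50358 these were -0.35, -0.32, -0.38 and -0.27 (adjusted p = 0.12, 0.34, 5.2e-04 and 3.5e-04). Hspg2, which encodes perlecan (0.32), and Lama5, the laminin chain of the glomerular membrane (0.23), rose, whereas Col4a1 (0.13), Lamb2 (-0.01) and Agrn (0.14) were not called. With the block 12 rose, against 4.83% of all genes tested. Without ApoM replicate 1 there were 2, without ApoM replicate 2 or CYM50358 replicate 2 there were 3, and without CYM50358 replicate 1 there were 8.

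Other matrix, adhesion and cytoskeletal genes gave few calls. Fibrillar collagen chains Col5a2 (0.36) and Col12a1 (0.32) rose among 25 fibrillar matrix genes, the integrin genes Itgav (0.29) and Itgb1 (0.25) and filamin, Flna (0.26), among 33 actin and adhesion genes, and Tead1 (0.24) and Amotl1 (0.25) among 18 YAP and TAZ genes. These calls were 8.0%, 9.1% and 11.1% of the genes tested in each list, against 2.59% of all genes tested. With the block, the fibrillar list gave 8 rises, the actin list 6 rises and 1 fall, and the YAP and TAZ list 8 rises. Over all genes tested 4.83% then rose. With the length trend described below also removed, the rises were 4, 6 and 2, and 1 fibrillar gene fell. Without ApoM replicate 1, ApoM replicate 2 or CYM50358 replicate 2, no actin gene was called, and without ApoM replicate 1, ApoM replicate 2 or CYM50358 replicate 3, no YAP and TAZ gene was. Among 26 TGF-beta and activin genes, Inhba, the activin subunit (263, 261 and 252 in ApoM cells, against 211, 195 and 193 in CYM50358 cells; log2 fold change 0.37, SE 0.06, adjusted p = 3.7e-04) and Ltbp2 (0.35) rose and Id3 fell (-0.37), with 3 rises and 1 fall in the list; the fall was lost by edgeR and without ApoM replicate 1, CYM50358 replicate 1 or CYM50358 replicate 2. Calls were 15.4% of the TGF-beta and activin genes tested, against 2.59% of all genes tested. Of 23 matrix proteases and inhibitors 1 rose and 1, Adamts1, fell (-0.28), which is 8.7%. With any library left out 1 or 2 of them rose, whereas the fall of Adamts1 was lost without ApoM replicate 1 or 2 or CYM50358 replicate 1 or 2. Of 18 podocyte genes, Nes, the intermediate filament nestin (542, 536 and 588 in ApoM cells, against 436, 435 and 423 in CYM50358 cells; log2 fold change 0.36, SE 0.05, adjusted p = 3.5e-04), Thsd7a (0.25) and Itgb1 rose and Clic5 fell (-0.68), while Synpo (-0.07), Podxl (0.03) and Wt1 (0.05) were not called. Calls were 22.2% of the podocyte genes tested, against 2.59% of all genes tested. With 1 library left out, 1 to 3 of the podocyte genes rose and 0 to 2 fell.

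**Figure D4:**
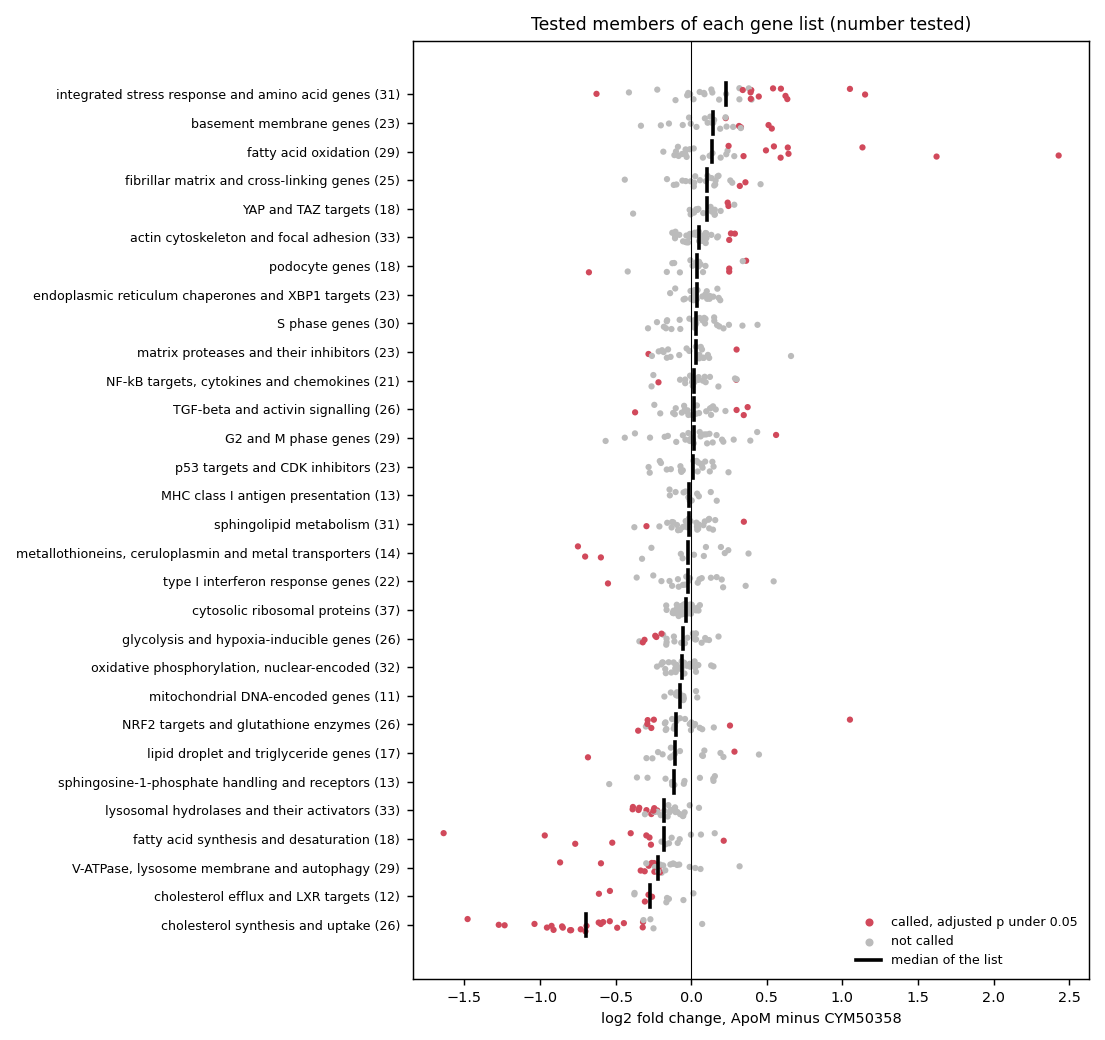
Log2 fold change, ApoM minus CYM50358, of every tested member of 30 gene lists, ordered by list median, with called genes in red, others in grey and the median as a black bar. The cholesterol list has the lowest median (-0.70), and the lists of the integrated stress response (0.23), basement membrane (0.15) and fatty acid oxidation (0.14) have the highest.

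Genes of the matrix lists have long transcripts: the median of the longest annotated transcript was 6536 bases for basement membrane genes and 3267 for all genes tested. Long transcripts had higher values in ApoM cells across the whole table: in 5 equal bins of the tested genes by longest annotated transcript the median log2 fold change was -0.06, -0.04, -0.01, 0.01 and 0.09, from short to long. Of the 170 higher genes 111 were in the longest bin, against 17 of the 190 lower genes. CYM50358 replicate 3 lay farthest from 0 among the 6 libraries, with a median deviation of -0.13 in the longest bin, against -0.01 and -0.04 in CYM50358 replicates 1 and 2 and 0.05, 0.05 and -0.02 in ApoM replicates 1, 2 and 3. When the trend was removed from each library, an alternative added after the data were seen, 322 genes were called, 121 higher and 201 lower, and 92 of the 170 higher and 166 of the 190 lower genes were among them. The calls of Hspg2 (adjusted p = 0.23), Lama5 (0.52), Col5a2 (0.061), Col12a1 (0.068), Flna (0.20), Tead1 (0.30), Amotl1 (0.25) and Thsd7a (0.33) were then lost, as were those of Cenpe (0.076), Id3 (0.078) and Dgat2 (0.058). Col4a3 (0.054), Hmox1 (0.054), Ftl1 (0.054) and Aldoa (0.051) missed the threshold by little, and 3 genes each fell in the lists of NRF2 targets and of glycolysis. Col4a4 (8.5e-04) and Col4a5 (0.016) passed. Of the lipid and amino acid lists, 24 cholesterol genes fell, 13 fatty acid oxidation genes rose and 13 amino acid genes rose, each at least as many as without the correction, and 10 hydrolase and 10 pump and membrane genes fell. What gave rise to the trend was not tested.

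**Figure D5:**
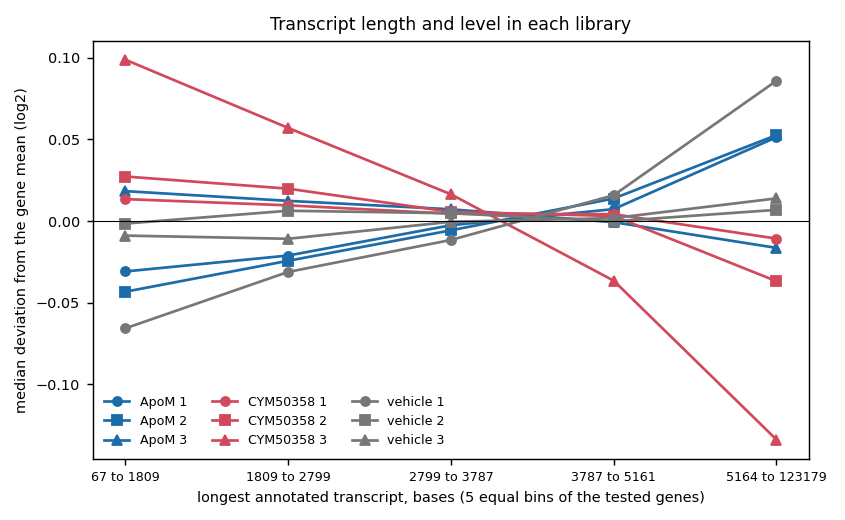
Median deviation of log2(signal + 1) from each gene's mean over 9 libraries, in 5 equal bins of the tested genes by longest annotated transcript (x axis, in bases), with 1 line per library. CYM50358 replicate 3 runs from 0.10 in the shortest bin to -0.13 in the longest, and vehicle replicate 1 runs the other way, from -0.07 to 0.09.

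No gene of S1P handling was called by limma without the block. S1pr4, the receptor that CYM50358 blocks, had 7, 16 and 0 reads in ApoM libraries and 0, 1 and 21 in CYM50358 libraries, and S1pr5 and Apom had at most 15 and 11 reads in any of them, below the level needed for a test. The receptor gene S1pr2 measured 33.97, 29.2 and 33.1 in ApoM cells, against 30.3, 31.1 and 25.5 in CYM50358 cells (log2 fold change 0.15, SE 0.10, adjusted p = 0.51), S1pr3 measured 13.5, 10.8 and 10.3 in ApoM cells, against 10.6, 10.1 and 9.81 in CYM50358 cells (log2 fold change 0.16, SE 0.13, adjusted p = 0.63) and S1pr1 was below 1.5 in all 6 libraries (log2 fold change -0.04, SE 0.22). Over all genes tested, 15.2% had an unadjusted p under 0.05 and 3.62% fell with the block. Of 13 tested genes of S1P handling 3 had an unadjusted p under 0.05, edgeR called 0, DESeq2 called 1, and 2 fell in limma with the block. The smallest p was that of Sgpp1, an S1P phosphatase (-0.29, adjusted p = 0.093, and 0.023 with the block). In sphingolipid metabolism, Cers6, a ceramide synthase (115, 119 and 106 in ApoM cells, against 98.5, 85.7 and 82.4 in CYM50358 cells; log2 fold change 0.35, SE 0.07, adjusted p = 0.0088), rose. It was the only rise among 31 genes tested, of which 1 fell (6.5% called, against 2.59% of all genes tested). No gene of the list was called without ApoM replicate 1, ApoM replicate 2 or CYM50358 replicate 2.

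Several lists had no call by limma without the block. Of all 13878 genes tested, 2115 (15.2%) had an unadjusted p under 0.05. Over the same genes edgeR called 306, DESeq2 639 and the block 1174 (8.46%). Among 30 S phase genes 2 had an unadjusted p under 0.05, and edgeR, DESeq2 and the block gave 0 calls. Of 23 p53 targets and CDK inhibitors 6 had such a p, and edgeR called 0, DESeq2 3 and the block 5. For 32 nuclear genes of oxidative phosphorylation these counts were 6, 0, 1 and 3. They were 1, 0, 0 and 1 for 11 mitochondrial genes and for 13 genes of MHC class I presentation, and 2, 0, 0 and 2 for 37 ribosomal protein genes. Of 29 mitotic genes 1, Cenpe, rose (0.56), which is 3.45% against 2.59% of all genes tested, and it was not called without ApoM replicate 1, ApoM replicate 2 or CYM50358 replicate 2. In inflammation, Tnfaip3, the brake on NF-kB signalling, rose (204, 220.2 and 222 in ApoM cells, against 168, 184 and 173 in CYM50358 cells; log2 fold change 0.30, SE 0.06, adjusted p = 0.0057) and the chemokine gene Cxcl12 fell (-0.22), a call kept only without CYM50358 replicate 3 when a library was left out, and of 22 interferon response genes only Ifit3 fell (40.00, 46.5 and 47.5 in ApoM cells, against 54.7, 67.5 and 76.8 in CYM50358 cells; log2 fold change -0.55, SE 0.10, adjusted p = 0.0023). Calls were 9.5% of the NF-kB list and 4.5% of the interferon list, against 2.59% of all genes tested. In glycolysis and the hypoxia response 5 of 26 genes fell (19.2%), among them Ndrg1 (-0.23), Aldoa (-0.24) and the glucose transporter gene Slc2a1 (-0.31), and 0 passed without ApoM replicate 1, ApoM replicate 2 or CYM50358 replicate 2.

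Of the largest changes among abundant genes, several belonged to no list. Kank3, an actin regulator (50.97, 52.1 and 44.6 in ApoM cells, against 23.3, 30.7 and 28.5 in CYM50358 cells; log2 fold change 0.82, SE 0.10, adjusted p = 1.9e-05), Klf11, a zinc finger transcription factor (0.68), Hipk2, a nuclear kinase (0.60), Hsdl2, a peroxisomal dehydrogenase (0.56), and Apol7d (0.87), one of a family of similar genes, rose. Spp1, which encodes osteopontin, fell with 185, 147 and 168 in ApoM cells, against 364, 270.4 and 238 in CYM50358 cells (log2 fold change -0.78, SE 0.10, adjusted p = 8.1e-05). It was unlike most called genes in that its vehicle values, 239, 256 and 341, lay on the CYM50358 side. Xdh, the xanthine dehydrogenase that makes urate (23.1, 26.2 and 24.8 in ApoM cells, against 44.6, 50.2 and 37.4 in CYM50358 cells; log2 fold change -0.80, SE 0.10, adjusted p = 3.6e-05), and Lgals3, which encodes galectin-3 (-0.76), fell too.

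Vehicle libraries lay nearer to ApoM than to CYM50358 cells for most genes that separated the treatments. The vehicle mean was closer to the ApoM mean for 327 of the 360 called genes (90.8%), against 65.0% of all genes tested: 159 of the 170 higher and 168 of the 190 lower. By list this held for 18 of the 22 called cholesterol genes, all 10 of fatty acid oxidation, all 12 hydrolases and all 11 pump and membrane genes, but for 7 of the 12 called stress response and amino acid genes. The authors' deposited table, in which both treatments share the vehicle libraries, gives the values of each treatment. For Angptl4 it lists a log2 fold change of 0.10 for ApoM and -2.45 for CYM50358 (adjusted p = 0.999 and 1.5e-136), and for Cpt1a 0.04 and -0.55 (0.999 and 3.2e-24). For Scd1 the authors' deposited table gives -0.50 for ApoM and 1.16 for CYM50358 (0.0067 and 9.5e-25), and for Fdps -0.41 and 0.83 (0.10 and 1.4e-11). Of these 4 genes, both values of Scd1 and the CYM50358 values of the other 3 passed an adjusted p of 0.05. For Gpnmb the authors' deposited table has 0.32 for ApoM and 1.24 for CYM50358, and for Slc7a5 0.38 and -0.25, of which neither Slc7a5 value passed an adjusted p of 0.05 (0.066 and 0.086).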

How the data were processed

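Per the labels' protocols, an mRNA-Seq kit was used on total RNA. Per the submitters' processing notes, FastQC, Trim Galore, STAR and edgeR were used with the build mm39; the sources used here give neither settings nor whether strand was counted, so overlapping, antisense and near-identical genes are uncertain. The authors deposited 2 tables of 57132 genes with a signal per library, whose values sum to 978628 to 1012285 in the 9 libraries used; the vehicle columns of both tables are identical, so the tables share a scale. Per the file headers they also hold a mean signal, log2 fold changes with standard errors against vehicle, a test score, and p-values.

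Signal values were whole multiples of a step per library, and 100% of values above 0 came out as whole reads, within 0.01. No 2 replicates were copies: chi-square per degree of freedom was at least 12.2. The main test was limma (3.58.1, trend) on log2(signal + 1) of the 6 libraries without a block, for genes that reached a signal of 0.5 in 3 or more of them, with Benjamini-Hochberg adjustment over all genes tested and a call at 0.05. The design had named this test for normalized values. Fold changes on this scale understate low genes, and counts of reads cover counting error only. Replicate numbers come from the titles; deviations of same-numbered ApoM and CYM50358 libraries correlated at 0.132, 0.115 and 0.132, each above 0.1, and were treated as pairs in the blocked fit. The main test was also run on simulated data with 50 genes changed by each of log2 -1, -0.5, 0.5 and 1. It recovered 39, 30, 28 and 44 of them, and called 5 unchanged genes. The simulated data held no length trend and no replicate pairs.

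Named genes were Col4a3 to Col4a5, S1pr1 to S1pr5 and Apom; the 15 largest rises and falls among called, named genes above the median level whose groups do not overlap; the 5 smallest p in each direction; up to 4 members with the smallest p per list with at least 3 called (2 otherwise); and defining markers. Other list members are named for their role in the pathway, after their values were seen. The 30 lists and the members were chosen with earlier results of these data known. Alternatives used edgeR 4.0.16, DESeq2 1.42.0, other pseudocounts, filters and scalings, a replicate block and each library left out. Transcript lengths are the longest GENCODE M21 transcript by gene identifier (98.6% of tested genes). Promoter windows are RefSeq's on GRCm38.p6 and were never combined with mm39 coordinates. Libraries of wild-type cells and the vehicle set beside them were not used here. Results for some genes are not reported here, in text or figures, though counts over lists include them.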

Additional observations from a re-analysis of the deposited data

How the results depend on the processing

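The number of calls, 360 in the main test, was 348 with a pseudocount of 0.1, 338 with 5, 384 with a signal of at least 5, 360 with TMM scaling, 387 with libraries centred on their median, 300 with 9 libraries in 1 fit, 306 by edgeR (299 shared) and 322 with the length trend removed, an alternative chosen after seeing the data. DESeq2 called 639 (326 higher, 313 lower), 352 of them among the 360. With no filter on low values limma called 6 of 25083 genes (3 higher, 3 lower), 5 of them among the 360, with 2423 at an unadjusted p under 0.05 against 2115 of 13878 with the filter; the cause was not tested. Leaving out 1 library gave 126 to 536 calls, 54 to 315 higher and 72 to 221 lower, with fewer libraries tested. The replicate block gave 1174 calls (671 higher, 503 lower), and together with removal of the length trend 672 (290 higher, 382 lower); for genes named by rule it lost no call and added 14. No called result reversed. Centring moved the median of all genes by 0.01. Of the 30 list medians, those of cholesterol synthesis (-0.78 to -0.63), both lysosomal lists, fatty acid oxidation (0.12 to 0.23) and basement membrane (0.07 to 0.18) kept their sign in every alternative, and those of 11 lists near 0 did not. With 3 libraries a group, small differences may not be detectable.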

Other observations

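Some of the larger differences concerned low genes outside the lists, which were chosen for mention after their values were seen. Ndnf, a secreted neuronal and endothelial factor, measured 17.4, 10.3 and 10.8 in ApoM cells, against 6.51, 4.11 and 5.10 in CYM50358 cells (log2 fold change 1.13, SE 0.18, adjusted p = 6.5e-04), without overlap, as for 350 of the 360 called genes. Lipg, an endothelial lipase that cleaves phospholipids of high-density lipoprotein, measured 3.30, 2.13 and 2.89 in ApoM cells, against 8.62, 6.85 and 6.70 in CYM50358 cells (log2 fold change -1.16, SE 0.17, adjusted p = 2.9e-04). Mgp, the matrix Gla protein that inhibits calcification, measured 1.67, 2.00 and 2.56 in ApoM cells and 5.18, 6.17 and 4.90 in CYM50358 cells (log2 fold change -1.06), and its vehicle values of 2.64, 2.91 and 7.07 ran from just above the ApoM values to above the CYM50358 values.

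Among markers of parietal and tubular epithelium, Lrp2, the endocytic receptor megalin, averaged 180.5 in ApoM cells and 143 in CYM50358 cells (log2 fold change 0.34) and Cldn2, a claudin of leaky tubular junctions, 8.68 and 14.1 (-0.66). Both were called, in opposite directions, and Pax8, Pax2, Cdh16, Cldn1 and Aqp1 were not, though with the replicate block Cdh16 also passed (adjusted p = 0.017). With the transcript length trend removed, Cldn2 was called and Lrp2 was not.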
